A study of Homo sapiens with 6 samples.

Results

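The chemokine ligands and their receptors were examined in SUM159, a triple negative breast cancer cell line, after stable knockdown of TβRIII, the type III TGF-β receptor encoded by TGFBR3. Members were taken by gene symbol. They were the genes on the array whose symbol begins with CCL, CXCL, CX3CL, XCL, CCR or CXCR and a number, with CX3CR1 and XCR1, each represented by its brightest probe set with a single symbol. This gave 53 of the 18276 genes on the array, 37 ligands and 16 receptors. RNA was measured on 6 Human Gene arrays, 3 of SUM159 cells labelled TGFBR3KD (TβRIII-KD below) and 3 of SUM159 cells labelled control. All 6 came from day 6 of growth in growth factor reduced matrigel with no further treatment. TβRIII-KD cells carried a lentiviral pLKO.1-puro short hairpin RNA to TGFBR3 and had been selected in puromycin, and each group is 1 cell line. Neither the labels nor the methods describe the vector that the control cells of these arrays carried, so knockdown and infection with selection cannot be told apart here. The labels number the arrays 1 to 3 in each group without saying whether they are separate cultures, so p-values measure only the spread between these arrays, which may be technical.

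Chemokines are small secreted proteins that form gradients and guide the movement of cells. They are named after the spacing of their first cysteines (CC, CXC, CX3C, XC), and they act through receptors with the same prefix that cross the membrane many times and couple to inhibitory G proteins. CXC ligands that carry a glutamate-leucine-arginine (ELR) motif act on CXCR1 and CXCR2, attract neutrophils and promote blood vessel growth, whereas CXCL9, CXCL10 and CXCL11 share the receptor CXCR3 and are induced by interferon. In breast tumors, chemokines made by carcinoma cells are known to recruit leukocytes, and CXCL12 acting on CXCR4 is known to direct tumor cell migration.

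Array medians lay between 7.67 and 7.71 on the log2 scale, and Pearson's r across probe sets was 0.992 to 0.994 among TβRIII-KD arrays, 0.995 to 0.996 among control arrays and 0.986 to 0.992 between the groups. TβRIII-KD array 3 lay apart from the other 5 on the second principal component, which carried 21.8% of the variance. TGFBR3 itself had log2 signals of 9.72, 10.01 and 10.16 in TβRIII-KD cells, against 10.81, 10.89 and 10.56 in control cells. It was lower by 1.73-fold (log2 fold change -0.79 ± 0.13 SE, limma adjusted p = 0.0145; exact permutation p = 0.1, two-sided, the smallest that 3 arrays against 3 allow). It was not called without TβRIII-KD array 2, control array 1 or control array 2 (adjusted p = 0.0625, 0.0770 and 0.0554). The mesenchymal genes VIM, CD44, FN1 and SNAI2 had mean signals of 12.0 to 13.4 in TβRIII-KD cells and 11.7 to 13.5 in control cells. ESR1, PGR, ERBB2, EPCAM and CDH1, which mark luminal, HER2-positive or epithelial cells, had mean signals of 5.09 to 8.92 in TβRIII-KD cells and 5.08 to 8.84 in control cells, and 0 of these 5 passed the cutoff (0 at an unadjusted limma p under 0.05, and 0 by the methods' t-test). Unless called adjusted, counts by the methods' t-test are at an unadjusted p under 0.05. That test is the unpaired two-tailed one of the study's general statistics, whereas its arrays were tested with limma. Of 17 leukocyte markers measured, 0 passed the cutoff (0 at an unadjusted limma p under 0.05, and 1 by the methods' t-test). Their summed log2 signal was 105.1 to 106.8 on TβRIII-KD arrays and 104.5 to 105.4 on control arrays. PTPRC, the phosphatase that all leukocytes carry, was the dimmest of the 17 and averaged 4.40 in TβRIII-KD cells and 4.25 in control cells. CD68, the brightest, had log2 signals of 10.21, 9.71 and 10.07 in TβRIII-KD cells, against 10.48, 10.03 and 10.35 in control cells. These overlapped and differed by -0.29 ± 0.15 SE on the log2 scale (limma adjusted p = 0.427). Of the 17, 4 had a lower mean in TβRIII-KD cells. The cultures were of the SUM159 line, and the methods name no leukocytes or other cells in them. In a culture measured in bulk, less RNA per cell and fewer cells of the line that make it cannot be told apart. The leukocyte markers' part in any result below was not tested.

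CCL5 was the single member that passed the cutoff, an adjusted p under 0.05 over all 22148 probe sets with an absolute log2 fold change over 0.5, and it was lower in TβRIII-KD cells. CXCL13 and CXCL11 had larger mean differences in the same direction but wider spreads, and neither passed. The remaining 50 members had log2 fold changes between -0.33, for CXCL10, and 0.23, for CCL3. So 0 members passed as higher and 1 as lower, where 0.772% of all genes passed as higher and 1.55% as lower. At an unadjusted limma p under 0.05 there were 5 members, 2 higher and 3 lower, against 15.6% of all genes, and the methods' t-test at the same unadjusted limit gave 3. The share of members called was close to, or under, that of all genes. The median log2 fold change was 0.02 over the members and 0.01 over all genes, and 48 of the 53 members (90.6%) lay within 0.25 of 0, as did 87.1% of all genes.

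**Figure D1:**
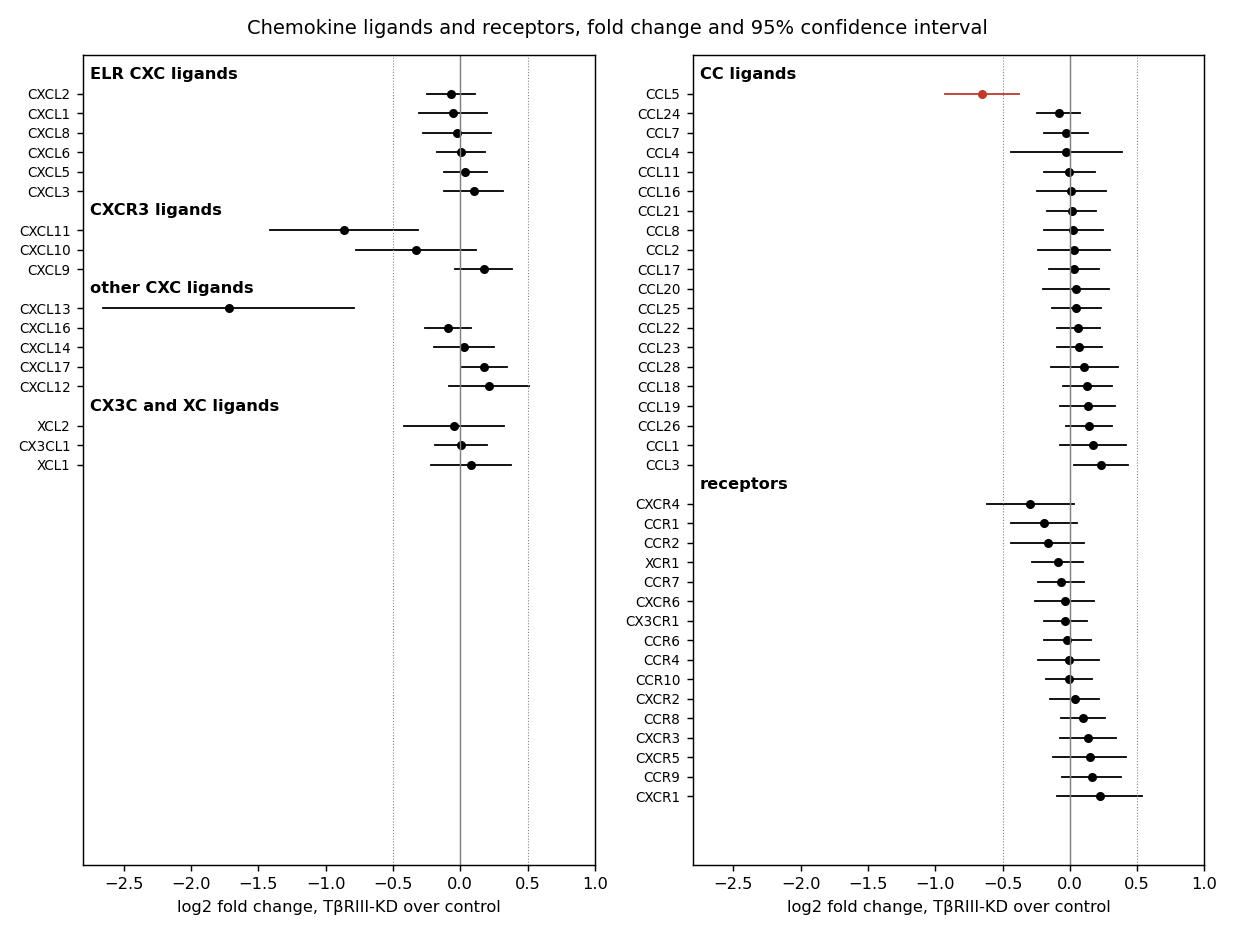
Log2 difference between TβRIII-KD and control cells of the 53 chemokine ligands and receptors, grouped by family. Points are limma estimates, lines 95% confidence intervals and dotted lines the fold limit of 0.5 either way; the red member, CCL5, passed the cutoff, and CXCL13 and CXCL11 lie left of the limit with wider intervals.

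CCL5 (RANTES), a CC ligand that attracts T cells and monocytes through CCR1 and related receptors, had log2 signals of 9.09, 8.87 and 9.35 in TβRIII-KD cells, against 9.69, 9.74 and 9.84 in control cells. All 3 TβRIII-KD arrays lay below all 3 control arrays, and the gap between the groups was 0.34. CCL5 averaged 9.10 ± 0.24 in TβRIII-KD cells and 9.76 ± 0.08 in control cells (SD, n = 3 each). This was a 1.57-fold fall (log2 fold change -0.65 ± 0.12 SE, 95% confidence interval -0.93 to -0.38, limma adjusted p = 0.0234). The call depended on 5 of the 6 arrays. With 1 array left out the log2 fold change stayed between -0.78 and -0.53, but the adjusted p was 0.00545 without TβRIII-KD array 3 and between 0.0621 and 0.0961 when any of the other 5 was dropped. The methods' t-test gave an adjusted p of 0.218. CCL5 also had the highest mean signal of the members, although signals of different probe sets are not compared here as amounts of RNA. CCR1, one of its receptors, differed by -0.19 ± 0.11 SE on the log2 scale (adjusted p = 0.464).

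CXCL13, the B cell attractant that binds CXCR5, had log2 signals of 5.59, 5.03 and 6.88 in TβRIII-KD cells, against 7.68, 7.14 and 7.84 in control cells. The groups did not overlap, but TβRIII-KD array 3 lay far nearer to the control arrays than arrays 1 and 2 did. Means were 5.83 ± 0.95 in TβRIII-KD cells and 7.55 ± 0.36 in control cells (SD, n = 3 each), a 3.30-fold difference that did not pass the cutoff (log2 fold change -1.72 ± 0.41 SE, 95% confidence interval -2.65 to -0.79, adjusted p = 0.0627). Leaving out array 3 changed the call. Without it the log2 fold change was -2.25 with an adjusted p of 0.00174, and with each of the other arrays left out in turn it was not called. Over the 6 omissions the log2 fold change ranged from -2.25 to -1.32 and the adjusted p from 0.00174 to 0.217. When limma was allowed to weight the arrays by their quality, CXCL13 passed (log2 fold change -1.82, adjusted p = 0.0234). Its receptor CXCR5 differed by 0.15 ± 0.12 SE on the log2 scale (adjusted p = 0.627).

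CXCL11 (I-TAC), a CXCR3 ligand, had log2 signals of 6.01, 5.59 and 5.23 in TβRIII-KD cells, against 6.03, 6.91 and 6.47 in control cells. The groups did not overlap, yet the highest TβRIII-KD array and the lowest control array were only 0.02 apart. The log2 fold change was -0.86 ± 0.24 SE (95% confidence interval -1.41 to -0.31, adjusted p = 0.109), and no omission of an array brought the adjusted p under 0.0703. CXCL10 (IP-10), which lies beside CXCL11 on chromosome 4, had 7.23, 7.18 and 6.62 in TβRIII-KD cells, against 7.24, 7.69 and 7.09 in control cells. Here the groups overlapped, and the log2 fold change of -0.33 ± 0.19 SE (95% confidence interval -0.77 to 0.12) had an adjusted p of 0.492. CXCL9 (MIG), the remaining CXCR3 ligand and their neighbor, had 4.06, 4.33 and 4.32 in TβRIII-KD cells, against 4.15, 4.05 and 3.99 in control cells. Its mean difference ran the other way, at 0.17 ± 0.09 SE (adjusted p = 0.446). CXCL9 was the dimmest of the 53 members, with a mean signal of 4.15, so little can be read from its direction. CXCR3 had 7.25, 7.30 and 7.00 in TβRIII-KD cells, against 7.05, 7.09 and 7.01 in control cells, with overlap and a log2 fold change of 0.14 (adjusted p = 0.550).

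**Figure D2:**
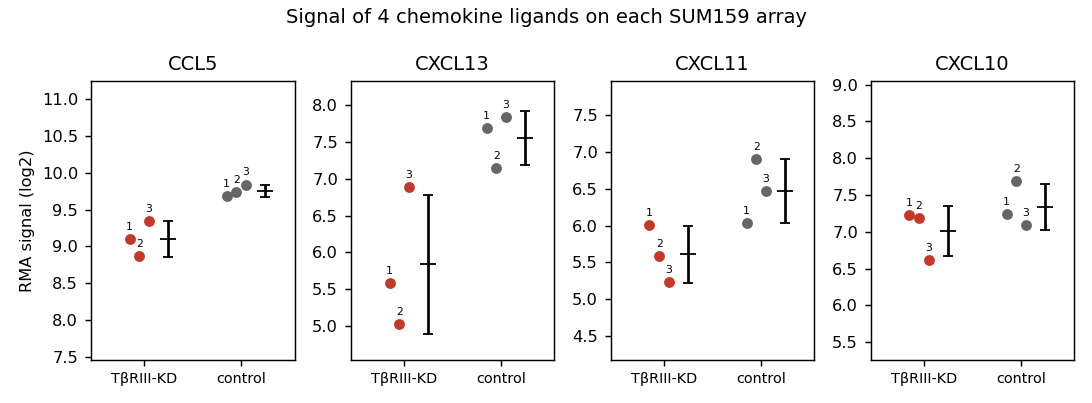
RMA log2 signal of CCL5, CXCL13, CXCL11 and CXCL10 on each array, numbered by replicate, with TβRIII-KD in red and control in grey; bars are the mean ± SD of 3 arrays, and the 4 vertical axes span the same number of log2 units. The groups are apart for CCL5 by 0.34, for CXCL13 by 0.26 and for CXCL11 by 0.02, and they overlap for CXCL10.

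**Figure D3:**
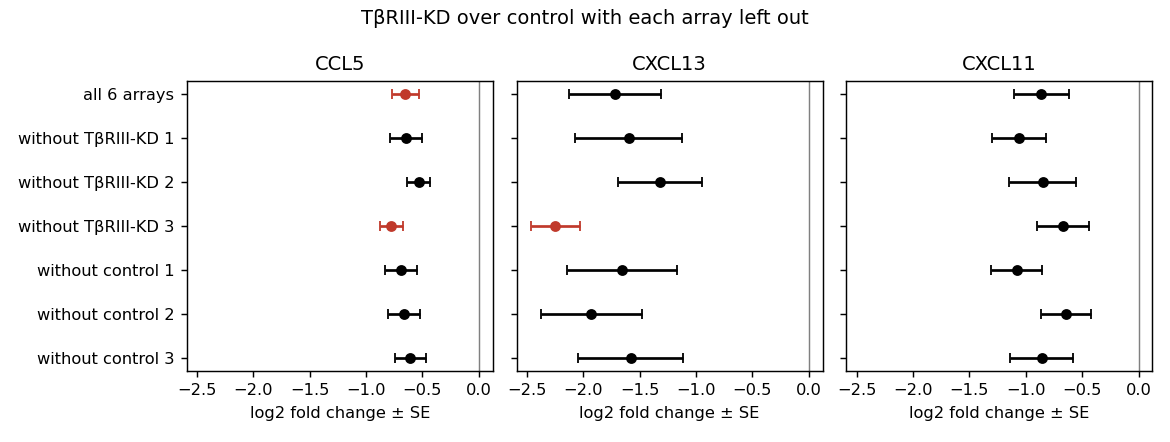
Log2 fold change (TβRIII-KD over control, ± SE) of CCL5, CXCL13 and CXCL11 with all 6 arrays and with each array left out, on a shared axis; red marks estimates past the cutoff. CCL5 is past it with all arrays and without TβRIII-KD array 3, CXCL13 without TβRIII-KD array 3 alone, and CXCL11 in none of the 7 fits.

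CXCL13, CXCL11, CXCL10 and CXCL9 are on chromosome 4 with the ELR ligands. The order of the 10 members there is CXCL8, CXCL6, CXCL1, CXCL5, CXCL3, CXCL2, CXCL9, CXCL10, CXCL11, CXCL13. By the windows given below, CXCL13 lies much farther from CXCL11 than CXCL9 does. The first 7 of these 10 genes had log2 fold changes of -0.07 to 0.17, and the last 3 had -0.33, -0.86 and -1.72. The promoters of 4 of them are shown because CXCL13 and CXCL11 had the 2 largest mean differences and CXCL10 and CXCL9 are the other CXCR3 ligands. Each is a RefSeq window (GRCh38.p14) from 250 bases before to 50 bases after a start, 5′ to 3′ on the gene's strand. They are CXCL11 at chr4:76036021-76036320 (minus strand), CXCL10 at chr4:76023448-76023747 (minus strand), CXCL9 at chr4:76007460-76007759 (minus strand), and the second of 2 windows of CXCL13 at chr4:77605570-77605869 (plus strand). Capitals mark matches, on either strand, to the NF-kB consensus, C/EBP (TTNNGNAA), AP-1 (TGANTCA), the core of the interferon-stimulated response element (ISRE; TTTC, any 2 bases, TTTC) or the SMAD motif (CAGACA), and overlapping matches run together.
CXCL11: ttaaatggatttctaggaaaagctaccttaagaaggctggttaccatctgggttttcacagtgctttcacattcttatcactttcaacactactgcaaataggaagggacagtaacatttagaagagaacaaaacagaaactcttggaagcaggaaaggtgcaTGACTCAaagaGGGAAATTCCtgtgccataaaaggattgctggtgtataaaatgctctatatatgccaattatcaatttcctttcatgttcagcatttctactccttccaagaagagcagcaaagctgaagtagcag
CXCL10: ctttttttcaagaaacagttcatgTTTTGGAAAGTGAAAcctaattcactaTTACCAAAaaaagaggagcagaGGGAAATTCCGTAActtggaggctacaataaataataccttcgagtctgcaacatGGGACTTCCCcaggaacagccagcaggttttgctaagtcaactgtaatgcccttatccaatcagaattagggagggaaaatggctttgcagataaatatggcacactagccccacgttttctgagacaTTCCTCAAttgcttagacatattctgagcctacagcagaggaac
CXCL9: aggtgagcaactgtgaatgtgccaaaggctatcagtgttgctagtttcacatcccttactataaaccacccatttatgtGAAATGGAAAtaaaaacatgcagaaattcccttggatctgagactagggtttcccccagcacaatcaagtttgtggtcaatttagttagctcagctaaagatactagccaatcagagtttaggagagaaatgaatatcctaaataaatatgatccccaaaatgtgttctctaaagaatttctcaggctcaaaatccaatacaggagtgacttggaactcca
CXCL13: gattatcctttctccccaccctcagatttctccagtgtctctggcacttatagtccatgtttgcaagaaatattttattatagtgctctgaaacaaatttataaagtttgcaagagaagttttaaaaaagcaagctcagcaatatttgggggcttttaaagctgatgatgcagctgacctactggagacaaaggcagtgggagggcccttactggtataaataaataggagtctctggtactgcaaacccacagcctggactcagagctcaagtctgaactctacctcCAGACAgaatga

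CXCL11 held an AP-1 match and, 76 bases before the start, the NF-kB match GGGAAATTCC. CXCL10 held the same 10 letters 177 bases before its start, as well as a second NF-kB match, GGGACTTCCC, an ISRE match and several C/EBP matches, of which 2 overlap the ISRE core and 1 the first NF-kB match. CXCL9 held an ISRE match, and the CXCL13 window shown held 1 SMAD match, downstream of the start. The first CXCL13 window (chr4:77511503-77511802) held none of the 5 motifs. Windows were at hand for 40 of the 53 members (53 windows in all). CCL5 had no window, so its promoter was not searched. An NF-kB match was in 17.0% of the members' windows and in 5.91% of all 35116 windows, an AP-1 match in 17.0% and 7.71%, an ISRE match in 7.55% and 3.57%, a C/EBP match in 41.5% and 36.8%, and a SMAD match in 15.1% and 16.9%. The 9 members with an NF-kB match were CCL20, CCL22, CXCL1, CXCL2, CXCL3, CXCL5, CXCL6, CXCL10 and CXCL11, and 7 of them had log2 fold changes of -0.07 to 0.10. A match describes letters in the window and not binding.

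None of the 6 ELR ligands passed the cutoff (0 at an unadjusted limma p under 0.05, and 0 by the methods' t-test), and their log2 fold changes lay between -0.07 and 0.10. Of all genes, 15.6% had an unadjusted limma p under 0.05. CXCL8 (IL-8), the main neutrophil attractant, had log2 signals of 7.76, 7.46 and 7.32 in TβRIII-KD cells, against 7.56, 7.54 and 7.50 in control cells, so that the TβRIII-KD arrays lay on both sides of the control arrays. Its log2 fold change was -0.02 ± 0.11 SE (95% confidence interval -0.28 to 0.23). CXCL1 (GROα), a CXCR2 ligand, had 7.38, 7.38 and 7.05 in TβRIII-KD cells, against 7.24, 7.26 and 7.46 in control cells. CXCL2 (GROβ), its close relative, had 7.23, 7.08 and 7.02 in TβRIII-KD cells, against 7.17, 7.21 and 7.15 in control cells. Both genes overlapped between the groups, with log2 fold changes of -0.05 and -0.07. CXCL3 (GROγ) had 6.45, 6.73 and 6.47 in TβRIII-KD cells, against 6.55, 6.37 and 6.43 in control cells, a log2 fold change of 0.10. CXCL5 (ENA-78) had 6.80, 6.92 and 6.89 in TβRIII-KD cells, against 6.82, 6.86 and 6.82 in control cells, a log2 fold change of 0.04. CXCL6 (GCP-2) had 5.99, 5.86 and 5.90 in TβRIII-KD cells, against 5.85, 5.87 and 6.01 in control cells, a log2 fold change of 0.01. The 95% confidence intervals of all 6 lay within 0.5 of 0, so a change in array signal of the size of the fold limit lay outside them. The signs of CXCL1, CXCL6 and CXCL8 turned when single arrays were left out.

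CXCL12 (SDF-1), the ligand of CXCR4, had the second highest mean signal of the members, with 9.24, 9.67 and 9.28 in TβRIII-KD cells, against 9.13, 9.36 and 9.07 in control cells. The groups overlapped, and the log2 fold change was 0.21 ± 0.13 SE (95% confidence interval -0.08 to 0.51, adjusted p = 0.505). CXCR4 had 6.21, 6.42 and 5.88 in TβRIII-KD cells, against 6.44, 6.64 and 6.32 in control cells. In each group array 2 was the highest and the groups overlapped, with a log2 fold change of -0.29 ± 0.14 SE (95% confidence interval -0.62 to 0.03, adjusted p = 0.380). For both genes the interval reaches past 0.5, so a change of that size was not resolved by 6 arrays. ACKR3, an atypical receptor that binds CXCL12 without G protein signaling, differed by -0.18 ± 0.16 SE on the log2 scale (adjusted p = 0.661).

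**Figure D4:**
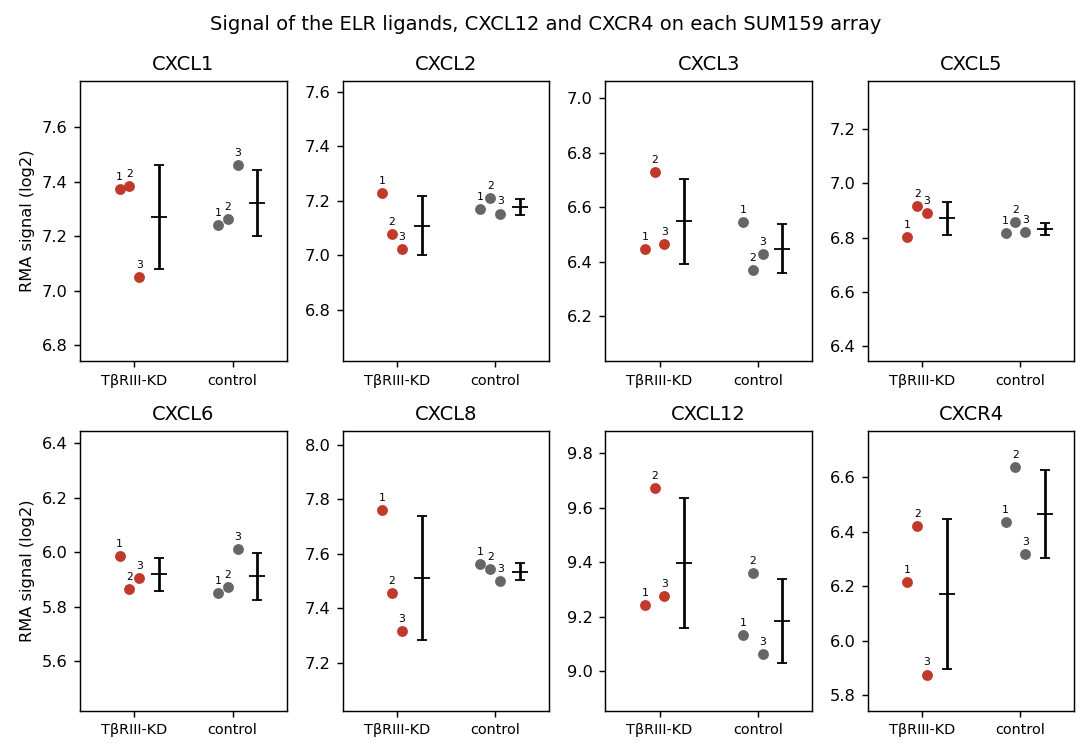
RMA log2 signal of the 6 ELR CXC ligands, CXCL12 and CXCR4 on each array, numbered by replicate, with TβRIII-KD in red and control in grey; bars are the mean ± SD of 3 arrays, and all vertical axes span the same number of log2 units. The groups overlap in every panel.

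CX3CL1 (fractalkine), a chemokine on a membrane-bound stalk, had 7.37, 7.51 and 7.37 in TβRIII-KD cells, against 7.53, 7.39 and 7.31 in control cells. Its receptor CX3CR1 had 5.54, 5.60 and 5.55 in TβRIII-KD cells, against 5.60, 5.52 and 5.66 in control cells. The log2 fold changes were 0.01 (95% confidence interval -0.19 to 0.20) and -0.03 (95% confidence interval -0.19 to 0.13), and both genes overlapped between the groups.

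Among the 20 CC ligands, the 19 other than CCL5 had log2 fold changes of -0.08 to 0.23, and none passed the cutoff (1 at an unadjusted limma p under 0.05, and 0 by the methods' t-test). That 1 was CCL3 (MIP-1α), which attracts monocytes through CCR1, and 15.6% of all genes were under that unadjusted limma limit. CCL3 had 7.33, 7.38 and 7.48 in TβRIII-KD cells, against 7.23, 7.26 and 7.02 in control cells. All 3 TβRIII-KD arrays were higher, with a mean difference of 0.23 ± 0.09 SE on the log2 scale (adjusted p = 0.248). CCL17 (TARC), a CCR4 ligand with the highest signal of the CC ligands after CCL5, had 7.66, 7.76 and 7.58 in TβRIII-KD cells, against 7.72, 7.54 and 7.64 in control cells. These overlapped and differed by 0.03 ± 0.08 SE (log2; adjusted p = 0.906). CCL5 lies on chromosome 17, where 14 members map, and the other 13 had log2 fold changes of -0.09 to 0.23. A further 8 probe sets, 5 of them with values of their own, carried chemokine symbols together with other symbols and were not counted as members. They were those of CCL3 or CCL4 with the near-identical CCL3L or CCL4L copies, of CCL14 with CCL15, and of CCL27 with LOC730098. CCL14, CCL15 and CCL27 thus had no member probe set. Log2 fold changes of the 8 probe sets were -0.07 to 0.16, with a lowest adjusted p of 0.487. Those shared by CCL3, CCL3L1 and CCL3L3 held the same values in each copy, overlapped between the groups and differed by -0.05 on the log2 scale (adjusted p = 0.821), so they did not follow the difference of the CCL3 probe set.

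Counted without regard to size, 3 members had all TβRIII-KD arrays above all control arrays (CCL3, CXCL17 and CCL18), where 10.2% of all genes did. The reverse held for 4 members (CCL5, CXCL13, CXCL11 and CCL24), where 11.0% of all genes did. CXCL17, a mucosal chemokine, had 6.34, 6.44 and 6.37 in TβRIII-KD cells, against 6.15, 6.27 and 6.19 in control cells (log2 fold change 0.18 ± 0.07 SE, adjusted p = 0.285). CCL18, a product of macrophages that attracts T cells, and CCL24 (eotaxin-2), an eosinophil attractant, differed by 0.13 and -0.08 on the log2 scale with adjusted p of 0.515 and 0.638.

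None of the 16 receptors passed the cutoff (0 at an unadjusted limma p under 0.05, and 0 by the methods' t-test). Of all genes, 0.772% passed as higher, 1.55% passed as lower and 15.6% had an unadjusted limma p under 0.05. In none of the 16 were the groups apart, where 10.2% of all genes were apart as higher and 11.0% as lower. The log2 fold changes of the receptors lay between -0.29, for CXCR4, and 0.22, for CXCR1, a receptor for CXCL8. CCR10, the receptor for CCL27 and CCL28, had the highest mean signal of them, with 8.45, 8.56 and 8.47 in TβRIII-KD cells, against 8.50, 8.41 and 8.57 in control cells. Its log2 fold change was -0.00 ± 0.08 SE (95% confidence interval -0.17 to 0.17). XCR1, the lymphotactin receptor of cross-presenting dendritic cells, had 6.71, 6.65 and 6.54 in TβRIII-KD cells, against 6.81, 6.74 and 6.62 in control cells, with overlap and a difference of -0.09 ± 0.08 SE (log2; adjusted p = 0.669).

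How far the array signals of the flat members may differ can be read from their intervals. These bound the measured signal and not the RNA, since RMA compresses small signals. The 95% confidence interval of 46 of the 53 members lay wholly within 0.5 of 0. The other 7 were CCL5, CXCL10, CXCL11, CXCL12, CXCL13, CXCR1 and CXCR4. The interval's margin on either side was 0.22 at the median and ranged from 0.16 to 0.93, for CXCL13. Only 3 members, CCL5, CXCL12 and CCR10, had a mean signal at or above the median of all probe sets, 7.70, and for the dimmer 50 no measure of signal over background was used.

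Lists of genes that act with the chemokines were examined beside the members. Of 37 genes of chemokine receptor signaling measured, 3 passed as higher and 1 as lower, where 0.772% and 1.55% of all genes did. At an unadjusted limma p under 0.05 there were 7, a share near the 15.6% of all genes, and the methods' t-test at the same unadjusted limit gave 6. ARRB1 (β-arrestin 1), which takes activated receptors off the membrane, had 9.25, 8.97 and 9.22 in TβRIII-KD cells, against 8.08, 8.26 and 8.23 in control cells (log2 fold change 0.96 ± 0.10 SE, adjusted p = 0.00155). ELMO1, a partner of DOCK2 in activating Rac, had 8.57, 8.29 and 8.63 in TβRIII-KD cells, against 9.66, 9.38 and 9.82 in control cells (log2 fold change -1.13 ± 0.13 SE, adjusted p = 0.00323). Neither gene overlapped between the groups, and both passed with each array left out. PTK2B, a calcium-responsive focal adhesion kinase, and GNG2, a G protein γ subunit, were higher by 0.52 ± 0.07 and 0.55 ± 0.09 on the log2 scale (SE, adjusted p = 0.00720 and 0.0145), and neither overlapped between the groups. GNG2 passed with TβRIII-KD array 3 or control array 2 left out, but not without any of the other 4 arrays (log2 fold change 0.48 to 0.62, adjusted p 0.0102 to 0.0684). PTK2B had an adjusted p under 0.05 in each of these fits, with a log2 fold change of 0.50 without TβRIII-KD array 3 and 0.49 without control array 3, both under the fold limit.

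Of 28 cytokines, receptors and sensors that induce chemokines, 1 passed as higher and 2 as lower, beside 0.772% and 1.55% of all genes. There were 13 at an unadjusted limma p under 0.05, which 15.6% of all genes had, and 10 by the methods' t-test. The groups were apart as lower for 8 of the 28 and as higher for 5, where 11.0% and 10.2% of all genes were. OSMR and STAT3 had a limma adjusted p of 0.0352 and 0.0396 but were under the fold limit, at -0.49 and -0.37. IL6 was past that limit at -0.58 ± 0.13 SE but had an adjusted p of 0.0591. TLR2, the sensor of bacterial lipoproteins, had 6.86, 6.63 and 6.67 in TβRIII-KD cells, against 7.59, 7.77 and 7.82 in control cells (log2 fold change -1.01 ± 0.10 SE, adjusted p = 0.00127). TLR4, the endotoxin sensor, had 10.10, 9.90 and 10.21 in TβRIII-KD cells, against 10.79, 10.86 and 10.80 in control cells (log2 fold change -0.75 ± 0.09 SE, adjusted p = 0.00399). Both kept an adjusted p under 0.05 with each array left out. TNFRSF1B, a receptor for tumor necrosis factor, had 8.41, 8.18 and 8.19 in TβRIII-KD cells, against 7.73, 7.79 and 7.71 in control cells (log2 fold change 0.52 ± 0.08 SE, adjusted p = 0.0139), and it was not called without TβRIII-KD array 1, control array 1 or control array 3 (log2 fold change 0.44 to 0.56 and adjusted p 0.0169 to 0.0755 over the 6 omissions).

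Of 16 genes of the NF-kB family and its feedback, 0 passed the cutoff (6 at an unadjusted limma p under 0.05, and 4 by the methods' t-test). Their median log2 fold change was -0.11, where that of all genes was 0.01. A lower mean in TβRIII-KD cells was seen in 13 of the 16, and in 8321 of all 18276 genes. In 7 of the 16 the groups were apart in that direction, which held for 11.0% of all genes. In 1, NFKBIA, they were apart the other way, which held for 10.2% of all genes (log2 fold change 0.16 ± 0.08 SE, limma adjusted p = 0.407). An unadjusted limma p under 0.05 was found for 15.6% of all genes. NFKBIZ (IκBζ) had the lowest adjusted p of the list, at -0.41 ± 0.09 SE (adjusted p = 0.0541), followed by BCL3 at -0.35 ± 0.08 SE (adjusted p = 0.0699), both also under the fold limit. TNIP3, an inhibitor of the pathway, was past that limit at -0.60 ± 0.19 SE but had an adjusted p of 0.151. The 5 atypical chemokine receptors, the 3 chemokines with other symbols (PPBP, PF4 and PF4V1) and the 12 enzymes that process chemokines gave 0 calls each (0, 0 and 2 at an unadjusted limma p under 0.05, and 0, 0 and 2 by the methods' t-test). Of 5 endothelial markers, 1 passed, PECAM1, which was lower in TβRIII-KD cells (log2 fold change -1.04, adjusted p = 0.00127). The summed log2 signal of the 5 was 32.0 to 32.5 on TβRIII-KD arrays and 32.9 to 33.4 on control arrays. CDH5, VWF, TEK and CLDN5 differed by -0.16, 0.08, 0.06 and 0.05 on the log2 scale, and none of these 4 passed (0 at an unadjusted limma p under 0.05, and 0 by the methods' t-test). The methods name no endothelial cells in these SUM159 cultures, and the endothelial markers' part in the values above was not tested.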

How the data were processed

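RNA from SUM159 cells in matrigel was hybridized to 6 Affymetrix Human Gene 1.0 ST arrays, and per the labels 3 were TGFBR3KD and 3 control. The deposited log2 signals were used. The authors had run RMA, with its background correction, quantile normalization and median polish, through oligo under R 3.0.1. RMA compresses small signals, so fold changes of dim probe sets may be understated. For oligo and their limma, versions are not given in the sources used. No measure of background entered, and precision is limited by the number of arrays.

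The groups were tested with limma 3.58.1 under R 4.3.3 (eBayes without trend, two-sided, no block), adjusted by Benjamini-Hochberg over all 22148 probe sets and tested on simulated data. The cutoff was an adjusted p under 0.05 with an absolute log2 fold change over 0.5, after the study's methods. Genes came from the 19129 probe sets with 1 symbol, by the brightest. 1735 probe sets with several symbols and 1284 with none stayed in the adjustment. Single values were also tested by exact permutation. Replicate numbers were not taken as pairs: same-numbered arrays correlated at -0.06, 0.11 and 0.31 in their deviations from the group means. Between arrays of different numbers these correlations were -0.39 to 0.34.

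Members and lists were chosen with earlier results of these data known. Genes given on every array were members past the cutoff or with an absolute log2 fold change over 0.5. Also given so were the 5 brightest ligands and 3 brightest receptors, the ELR ligands, CXCL12 with CXCR4, and CX3CL1 with CX3CR1. Of the list genes past the cutoff, PTK2B, GNG2 and PECAM1 are given by fold change alone and the rest on every array. Others, such as CXCL9, CXCL10, CXCL17, CCL3, CCL18, CCL24, CXCR1, NFKBIZ, BCL3, OSMR, STAT3, IL6 and CD68, were chosen after their values were seen. Promoters are from RefSeq, GRCh38.p14. Alternatives were eBayes with a trend, robust eBayes, array weights, arrays centred on their medians or quantile normalized again, bright or named probe sets alone, the mean of a gene's probe sets, other fold limits, a replicate block, the unpaired two-tailed test of the study's statistics (the methods' t-test, here with Benjamini-Hochberg adjustment and, added after seeing the data, without) and each array left out.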

Additional observations from a re-analysis of the deposited data

How the results depend on the processing

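The count of 0 members higher held under all alternatives except the methods' t-test at an unadjusted p, which gave 1. The count of 1 member lower became 2 with array weights, 2 with the replicate block and 2 with the methods' t-test at an unadjusted p, 0 with the adjusted t-test, 0 with a fold limit of 1, and 0 to 2 with each array left out. Over all probe sets, 172 were higher and 329 lower; the higher count became 114 among bright probe sets, 1 with the adjusted t-test, 1370 with the unadjusted one, 275 with no fold limit, 37 with a fold limit of 1, and 88 to 251 with each array left out. The lower count became 16, 1586 and 103 under the adjusted t-test, the unadjusted t-test and a fold limit of 1, and 215 to 387 with each array left out. TGFBR3 kept its log2 fold change of -0.79 under the adjusted t-test but not its call (adjusted p = 0.198), and ranged from -0.89 to -0.67 with each array left out, not called without TβRIII-KD array 2 or control array 1 or 2. Where the setting leaves fewer arrays, 2 of a group remain; other causes were not tested. With the replicate block, CXCL13 also passed (adjusted p = 0.00317), as 229 probe sets did in the higher and 387 in the lower direction; CXCL11 did not (adjusted p = 0.0777).

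Signs near 0 turned for CXCL8 (0.00944) and CX3CL1 (-0.0212) with array weights and for CCR10 (0.0196) and CXCL6 (-0.0119) with repeated quantile normalization. With each array left out, log2 fold changes ranged from -0.0171 to 0.0741 for CCL17, -0.148 to 0.0743 for CXCL8, -0.0430 to 0.0688 for CX3CL1, -0.0436 to 0.0330 for CCR10, -0.109 to 0.0580 for CXCL1 and -0.0266 to 0.0572 for CXCL6. Of 598 values of 39 single genes under the alternatives, 548 kept direction and side of the threshold, 27 lost the call, 3 gained it (all CXCL13) and 20 turned sign. The adjusted t-test called none of CCL5, ARRB1, ELMO1, PTK2B, GNG2, TLR2, TLR4, TNFRSF1B and PECAM1. CCL5 lost its call in 6 of 16 alternatives and kept its direction in all 16.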

Other observations

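Several genes outside the chemokine families that were chosen after their values were seen did not pass the cutoff. TNIP3, an inhibitor of NF-kB signaling, had log2 signals of 6.46, 6.03 and 5.95 in TβRIII-KD cells, against 6.62, 7.14 and 6.48 in control cells (log2 fold change -0.60 ± 0.19 SE, limma adjusted p = 0.151). NFKB2, the precursor of the p52 subunit of the noncanonical pathway, had 8.53, 8.49 and 8.55 in TβRIII-KD cells, against 8.74, 8.81 and 8.82 in control cells (log2 fold change -0.27 ± 0.07 SE, limma adjusted p = 0.0815). ACKR1, the Duffy antigen receptor that binds many CC and CXC ligands, had 9.58, 9.97 and 9.97 in TβRIII-KD cells, against 10.10, 9.92 and 10.15 in control cells, with overlap (log2 fold change -0.22 ± 0.12 SE, limma adjusted p = 0.446).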
